A study of Homo sapiens with 6 samples.

Results

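The transcriptional coactivators YAP (YAP1) and TAZ (WWTR1), the DNA-binding TEAD factors they work through and a set of their direct targets were followed in U2OS cells after silencing of squalene epoxidase (SQLE), an enzyme of cholesterol synthesis. The set was given by name and held 10 genes of the 19937 in the count table: YAP1, WWTR1, TEAD1 and TEAD4 as factors, LATS2 as the kinase of the pathway, and CCN1 (older name CYR61), CCN2 (older name CTGF), ANKRD1, AMOTL2 and AJUBA as targets or regulators. All 10 matched 1 Ensembl identifier each, and all 10 passed the filter on low counts. U2OS is a long-established line of human osteosarcoma cells. The 6 libraries of poly(A) RNA comprised 3 labelled SQLE-shRNA (shSQLE) and 3 labelled scrambled-shRNA (shControl). Both groups were stable lines made with a lentiviral pGIPZ hairpin vector and kept for 2 weeks in puromycin at 2 μg/mL, so the controls carried the vector and the selection as well. Which of the hairpins designed against SQLE was in these cells, and whether replicate libraries stem from separate cultures, is not given in the sources used here, so that SDs and p-values describe the spread among these libraries.

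YAP and TAZ have no DNA-binding domain of their own. When the Hippo kinases (MST and LATS) are active they phosphorylate YAP and TAZ, which are then held in the cytoplasm or degraded. When the kinases are quiet, as in spread cells on a stiff matrix, YAP and TAZ enter the nucleus, bind TEAD factors and raise genes such as CCN1, CCN2 and ANKRD1. Some targets, LATS2 and AMOTL2 among them, restrain the pathway in turn. These steps act mainly on the proteins, whereas the values below are mRNA levels only.

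Totals ranged from 12212378 to 14393292 counts per library. A normalized read count is the count of a gene scaled to the mean effective library size, 13483670 counts. SQLE, the targeted gene, had normalized read counts of 1349, 1867 and 1924 across shControl replicates 1 to 3, against 229, 204 and 219 across shSQLE replicates 1 to 3, so the libraries matched their labels for the targeted gene. The shControl replicate 1 library stood apart. On the first principal component of log2 CPM (counts scaled to a common library size), which held 47.0% of the variance, it lay at -10.0, among the shSQLE libraries (-26.9 to -8.54) and away from the other controls (30.3 and 34.2). Its distance from shControl replicates 2 and 3 followed the base composition of the transcripts. With the tested genes ranked by GC content of the canonical transcript and split into 4 equal groups, the lowest group held 30.7% to 41.8% GC. There the median log2 difference of shControl replicate 1 from the mean of replicates 2 and 3 was -0.55, and in the highest group (57.1% to 76.0% GC) it was 0.53. By transcript length the medians went from 0.47 in the shortest of 4 such groups to -0.43 in the longest. The shSQLE libraries differed from shControl replicates 2 and 3 along the same trend, less steeply. Their medians were -0.23 in the lowest and 0.18 in the highest GC group, and 0.21 in the shortest and -0.22 in the longest length group. Leaving out shControl replicate 1 therefore kept a trend of this kind between the groups. For the 10 genes of the set, results whose call or direction differed without that library are given both ways. Of the markers of the osteoblast lineage and mesenchyme, VIM and RUNX2 were present in every library whereas SP7 and IBSP had no count in any. ALPL, BGLAP and COL1A2 had at most 2, 5 and 6 counts. The summed CPM of the 11 genes of that list was 2869 to 3083 in shControl and 3044 to 3343 in shSQLE. Nearly all of it was VIM, with 36305 to 46302 counts per library, while no other gene of the list passed 553. Of the 6 tested, 2 were called lower in shSQLE, PRRX1 (log2 fold change -1.88, called in all 13 alternative fits) and COL1A1 (-0.65, called in 5 of 13). In bulk RNA a change in the share of cells that express a gene and a change in the level per cell cannot be told apart. The 3 epithelial markers tested, EPCAM, KRT18 and KRT8, had log2 fold changes of 0.40, 0.16 and 0.08 (none called), and without shControl replicate 1 KRT18 (0.47) and KRT8 (0.35) were called higher, while CDH1 had at most 2 counts. The summed CPM of the epithelial list was 948 to 1506 in shControl and 1122 to 1345 in shSQLE. PECAM1, an endothelial marker with 2 to 15 counts, was at -1.67 and was called lower without shControl replicate 1 (-1.79), and the endothelial list summed to 0.901 to 1.22 CPM in shControl and 0.155 to 0.493 in shSQLE. The 4 blood markers reached at most 0.417 CPM in sum. Of all genes tested, 2.84% were called lower and 0.369% higher with all 6 libraries. Without shControl replicate 1, 18.3% of all genes were called lower and 15.6% higher. The part of these markers in the results below was not tested. Of 6 markers of skeletal and cardiac muscle, a tissue in which ANKRD1 is abundant, 5 had at most 3 counts in each library.

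**Figure D1:**
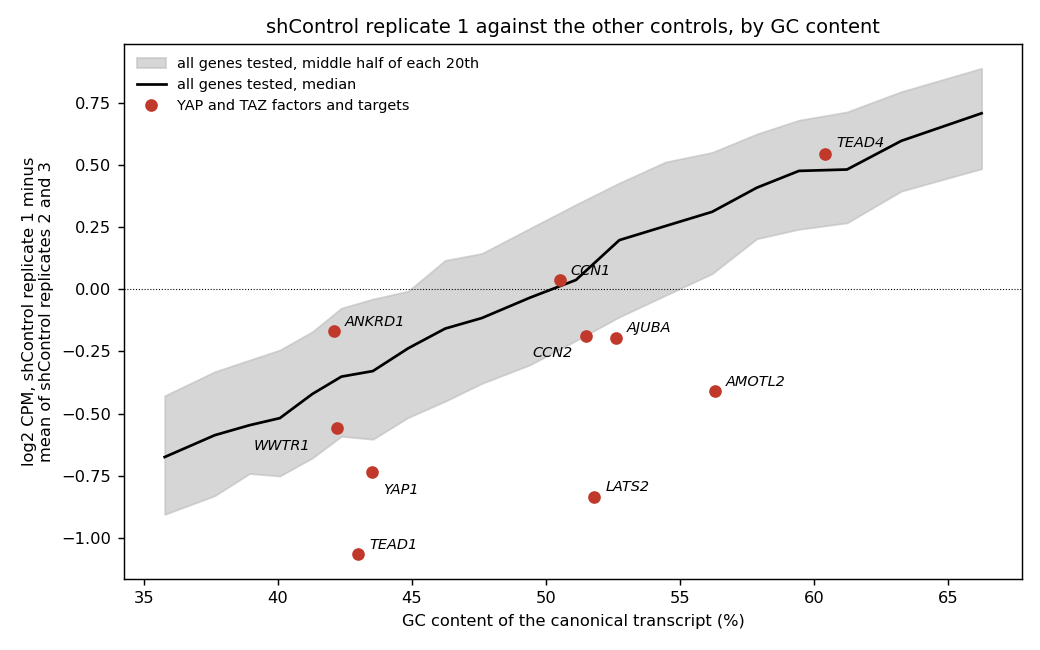
The log2 CPM of shControl replicate 1 minus the mean of shControl replicates 2 and 3 (y axis) is drawn against the GC content of the canonical transcript in percent (x axis). The black line is the median and the grey band the middle 50% of all genes tested, in 20 bins of GC content, and the red points are the YAP and TAZ factors and targets. The line rises with GC content, TEAD4 at 60.4% GC lies near it at 0.54, and TEAD1 (43.0% GC, -1.07), YAP1 (43.5%, -0.73), AMOTL2 (56.3%, -0.41), AJUBA (52.6%, -0.19) and LATS2 (51.8%, -0.83) lie below the band.

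The comparison of shSQLE with shControl sets cells with a hairpin against SQLE beside cells with a scrambled hairpin. The paper selected the optimal of its SQLE hairpins for U2OS cells. Effects of that hairpin beyond SQLE, or of making each stable line, cannot be told apart from loss of SQLE. Within the set, 2 of 10 genes passed an adjusted p of 0.05 (edgeR's quasi-likelihood test, Benjamini-Hochberg adjustment over all 12450 genes tested), and both were higher in shSQLE: CCN1 and CCN2, which encode secreted matricellular proteins. Of all genes tested, 0.369% were called higher and 2.84% lower. None of the 10 was called lower (0 by edgeR, 0 by DESeq2, which called 4.56% of all genes lower, and 0 at an unadjusted p under 0.05). The median log2 fold change of the 10 genes was 0.07, beside -0.01 for all genes tested. In 3 of the 10 the shSQLE libraries all lay above the shControl libraries (CCN1, CCN2 and AJUBA) and in 0 they all lay below, where 10% and 12.1% of all genes tested did so. With 3 libraries against 3, the smallest p of the two-sided exact permutation test is 0.1, and these 3 genes reached it.

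CCN1 (ENSG00000142871, chromosome 1, 85580761 to 85584589 of hg38, + strand) encodes a heparin-binding ligand of integrins and is an immediate target of YAP and TEAD. Its normalized read count was 2729, 2685 and 2634 across shControl replicates 1 to 3, against 4316, 4657 and 4102 across shSQLE replicates 1 to 3. The 3 controls were close together, shControl replicate 1 included, and every shSQLE library lay above them. The means were 2682 ± 47.5 and 4358 ± 280 (SD, n = 3 each), which gave a log2 difference of 0.70 (standard error, SE, 0.10, 95% interval 0.47 to 0.93, adjusted p = 0.00968 by edgeR), or 1.62-fold. This log2 fold change lay between 0.65 and 0.76 in the 13 alternative fits, and 10 of them called it. The call was lost without shControl replicate 2 (adjusted p = 0.0599), without shSQLE replicate 1 (0.0771) and without shSQLE replicate 2 (0.0804), at log2 fold changes of 0.70, 0.71 and 0.65 by edgeR.

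CCN2 (ENSG00000118523, chromosome 6, 131948176 to 131951372, - strand) encodes connective tissue growth factor, a secreted relative of CCN1 that is the usual reporter gene of YAP activity. Normalized read counts of CCN2 were 2732, 3141 and 3083 across shControl replicates 1 to 3, against 4168, 4242 and 4462 across shSQLE replicates 1 to 3. No control reached the lowest shSQLE library. The means were 2985 ± 221 and 4291 ± 153 (SD, n = 3 each), which gave a log2 difference of 0.52 (SE 0.10, 95% interval 0.29 to 0.76, adjusted p = 0.0350 by edgeR), or 1.44-fold. The call was made in 6 of the 13 alternative fits, with log2 fold changes of 0.46 to 0.56 in all 13, and was lost with library size as the only normalization (adjusted p = 0.0892 by edgeR), with the replicate number as a block (0.0685) and in 5 of 6 fits with a library left out, up to an adjusted p of 0.180 without shSQLE replicate 2. All 6 of these fits but that without shControl replicate 1 called few genes, with 0.0718% of all genes higher without shControl replicate 2, 0.103% without shControl replicate 3, and 0.0318%, 0.0398% and 0.0634% without shSQLE replicates 1, 2 and 3. Leaving out shControl replicate 1 gave 0.46 (adjusted p = 0.000805 by edgeR).

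TEAD factors bind the core GGAATG, read as CATTCC on the other strand. RefSeq promoters (GRCh38.p14) were at hand for 7 of the 10 genes, and the 250 bases before each start were searched on both strands. TEAD1, TEAD4 and CCN1 had no entry. Of 35116 promoters, 11.9% held the core at least 1 time, 0.940% at least 2 times and 0.0826% at least 3 times. The CCN2 promoter held 3 copies, which begin 169, 104 and 95 bases before the start, and the ANKRD1 promoter held 2, at 220 and 128 bases. These promoters are printed because they hold the most copies in the set, and CCN2 was called while ANKRD1 was not. The CCN2 stretch is chr6:131951373-131951622 and the ANKRD1 stretch chr10:90921088-90921337, both on the - strand and written 5′ to 3′ up to the base before the start, with the cores in capitals.
CCN2: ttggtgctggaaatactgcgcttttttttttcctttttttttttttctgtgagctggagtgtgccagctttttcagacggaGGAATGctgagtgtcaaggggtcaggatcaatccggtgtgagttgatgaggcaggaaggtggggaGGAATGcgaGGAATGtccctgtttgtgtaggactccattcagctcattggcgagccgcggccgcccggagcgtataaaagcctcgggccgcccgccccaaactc
ANKRD1: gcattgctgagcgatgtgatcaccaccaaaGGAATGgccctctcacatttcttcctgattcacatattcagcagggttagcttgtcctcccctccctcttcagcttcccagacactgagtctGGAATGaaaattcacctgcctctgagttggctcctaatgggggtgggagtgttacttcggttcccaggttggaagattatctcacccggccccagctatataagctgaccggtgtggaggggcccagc

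Of the others with an entry, YAP1 and 1 of the 2 promoters each of AMOTL2 and AJUBA held 1 core, and those of WWTR1 and LATS2 held 0. The AP-1 motif TGANTCA, whose factors often bind beside TEAD, was found 1 time in the ANKRD1 stretch and 0 times in that of CCN2, against 6.57% of all promoters with at least 1, and no such match shared a base with a TEAD core in either stretch. A match of letters is a description of the window and no evidence of binding.

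ANKRD1 (ENSG00000148677, chromosome 10, 90912096 to 90921087, - strand) encodes an ankyrin repeat protein of the nucleus and the sarcomere that is known from heart muscle. It was the least abundant gene of the set by count. Normalized read counts of ANKRD1 were 79.7, 81.4 and 99.1 across shControl replicates 1 to 3, against 80.3, 104 and 126 across shSQLE replicates 1 to 3. The groups overlapped, with shSQLE replicate 1 beside the lower controls. The estimate was a log2 fold change of 0.26 (SE 0.21, 95% interval -0.23 to 0.74, adjusted p = 0.668 by edgeR), an interval that also holds the estimates for CCN1 and CCN2. None of the 13 alternative fits called it (adjusted p from 0.465 to 0.939).

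AJUBA (ENSG00000129474, chromosome 14, 22971177 to 22982551, - strand) encodes a LIM domain protein that binds LATS kinases at adherens junctions and restrains them. Its normalized read count was 602, 685 and 693 across shControl replicates 1 to 3, against 841, 767 and 775 across shSQLE replicates 1 to 3. The groups did not overlap, with a gap smaller than the distance from the lowest to the highest control. Its log2 fold change of 0.27 (SE 0.12, 95% interval 0.00 to 0.53) had an unadjusted p of 0.0492 and did not pass the adjustment (adjusted p = 0.336 by edgeR), nor did it in any of the 13 alternative fits (0.0520 to 0.787). An overlapping protein-coding gene is annotated on the same strand, and its part in the count of AJUBA was not tested.

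AMOTL2 (ENSG00000114019, chromosome 3, 134355347 to 134375479, - strand) encodes an angiomotin, a scaffold of cell junctions that binds YAP and keeps it out of the nucleus. The normalized read count of AMOTL2 was 1217, 1630 and 1604 across shControl replicates 1 to 3, against 1503, 1416 and 1592 across shSQLE replicates 1 to 3. All shSQLE libraries lay between shControl replicate 1 and the other controls. Of all genes tested, 31.3% had every shSQLE library below shControl replicates 2 and 3, and 28.6% had every one above. On the log2 scale the groups differed by 0.02 (SE 0.14, 95% interval -0.30 to 0.34, adjusted p = 0.974 by edgeR), and it was -0.10 without shControl replicate 1 (adjusted p = 0.350).

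**Figure D2:**
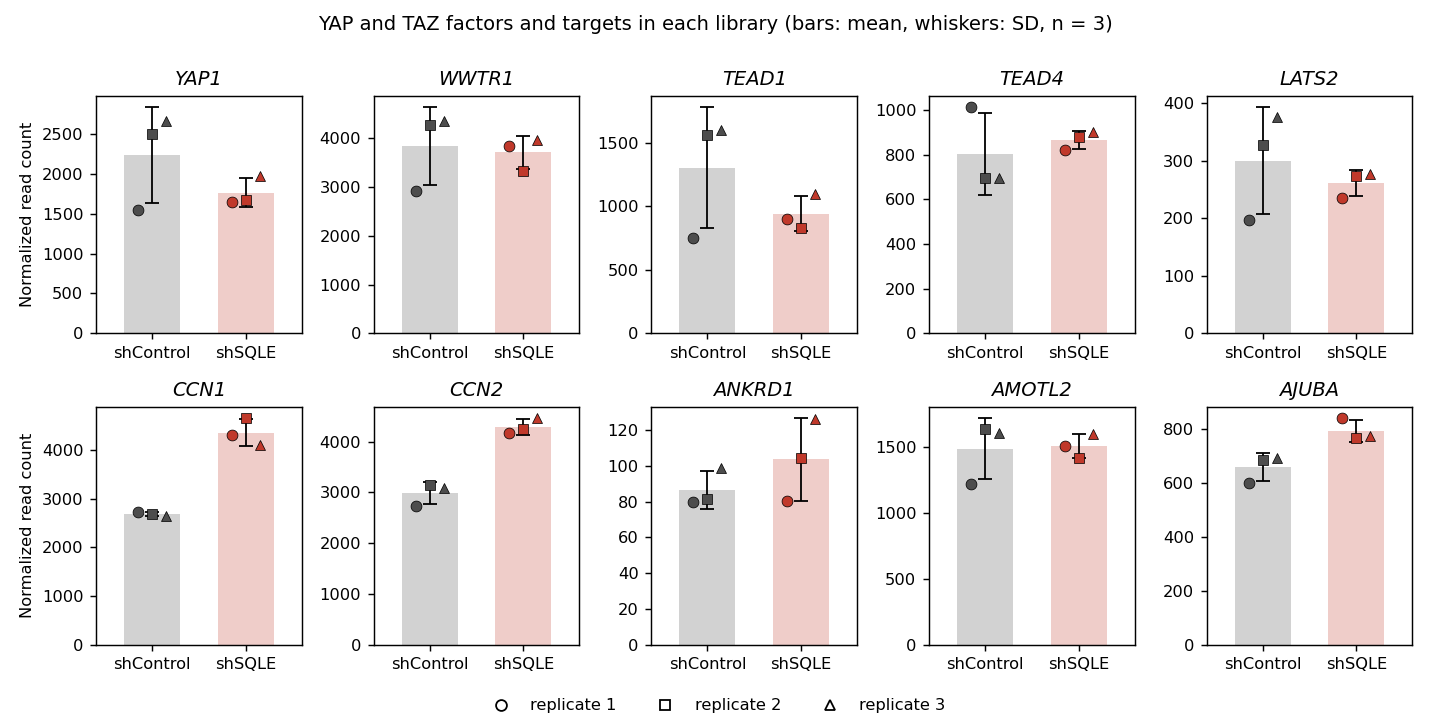
Normalized read counts (y axis, from 0) of the 10 genes in each library. Bars are group means and whiskers SDs (n = 3), and circles, squares and triangles are replicates 1, 2 and 3. For CCN1, CCN2 and AJUBA the shSQLE points all lie above the shControl points, and for TEAD1, YAP1, WWTR1, AMOTL2 and LATS2 the circle of shControl lies below all other points.

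For YAP1, TEAD1, TEAD4 and LATS2 the call turned on shControl replicate 1. YAP1 (ENSG00000137693, chromosome 11, 102110447 to 102233424, + strand) had a normalized read count of 1549, 2494 and 2666 across shControl replicates 1 to 3, against 1641, 1672 and 1968 across shSQLE replicates 1 to 3. The shSQLE libraries lay below shControl replicates 2 and 3 but above replicate 1. The log2 fold change was -0.35 (SE 0.20, 95% interval -0.81 to 0.12, adjusted p = 0.516 by edgeR). Leaving out shControl replicate 1 gave -0.55 (95% interval -0.75 to -0.35, adjusted p = 0.000920), and with smooth offsets for GC content and length in each library, all 6 libraries kept, it was -0.29 (95% interval -0.49 to -0.09, adjusted p = 0.0520).

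TEAD1 (ENSG00000187079, chromosome 11, 12674421 to 12944737, + strand), a TEAD factor expressed in most tissues, followed YAP1. Its normalized read count was 754, 1561 and 1603 across shControl replicates 1 to 3, against 900, 833 and 1096 across shSQLE replicates 1 to 3. The lowest and the highest library were both controls. The log2 fold change was -0.47 (SE 0.27, 95% interval -1.10 to 0.16, adjusted p = 0.511 by edgeR), -0.75 without shControl replicate 1 (95% interval -0.98 to -0.52, adjusted p = 0.000329) and -0.34 with the GC and length offsets (95% interval -0.62 to -0.06, adjusted p = 0.0970).

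WWTR1 (ENSG00000018408, chromosome 3, 149517235 to 149736714, - strand), which encodes TAZ, had a normalized read count of 2918, 4262 and 4344 across shControl replicates 1 to 3, against 3831, 3329 and 3964 across shSQLE replicates 1 to 3. Its groups overlapped in the same way, with all shSQLE libraries between the controls. The log2 fold change was -0.05 (SE 0.17, 95% interval -0.43 to 0.33, adjusted p = 0.932 by edgeR), and -0.21 without shControl replicate 1 (adjusted p = 0.0702). Its sign changed without shControl replicate 2 (0.031), shControl replicate 3 (0.059) or shSQLE replicate 2 (0.022), uncalled in each.

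TEAD4 (ENSG00000197905, chromosome 12, 2959330 to 3040676, + strand), a TEAD factor of the trophectoderm and of many tumours, ran opposite to TEAD1. The normalized read count of TEAD4 was 1014, 696 and 695 across shControl replicates 1 to 3, against 823, 880 and 899 across shSQLE replicates 1 to 3. Here shControl replicate 1 was the highest library and the other controls were the lowest. TEAD4 had a log2 fold change of 0.12 (SE 0.17, 95% interval -0.27 to 0.50, adjusted p = 0.834 by edgeR), 0.32 without shControl replicate 1 (adjusted p = 0.0153) and 0.09 with the GC and length offsets (adjusted p = 0.568). The canonical transcript of TEAD4 has a GC content of 60.4% over 1710 bases and that of TEAD1 43.0% over 9417 bases. The log2 difference of shControl replicate 1 from the mean of replicates 2 and 3 was 0.54 for TEAD4. The median of all genes tested in the bin at 61.2% GC was 0.48. For TEAD1 the difference was -1.07, below the median of -0.33 in the bin at 43.5% GC. The part of GC content and length in these differences was not tested beyond the fits given.

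LATS2 (ENSG00000150457, chromosome 13, 20973036 to 21061586, - strand), the kinase that phosphorylates YAP and TAZ and is itself among their targets, had a normalized read count of 196, 328 and 377 across shControl replicates 1 to 3, against 236, 274 and 276 across shSQLE replicates 1 to 3. The shSQLE libraries again fell between shControl replicate 1 and the other controls. LATS2 had a log2 fold change of -0.20 (SE 0.23, 95% interval -0.74 to 0.34, adjusted p = 0.780 by edgeR), -0.43 without shControl replicate 1 (adjusted p = 0.0165), 0.01 without shControl replicate 3 (adjusted p = 0.997) and -0.17 with the GC and length offsets (adjusted p = 0.579).

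Without shControl replicate 1, then, 3 of the 10 genes were called lower (YAP1, TEAD1 and LATS2) and 3 higher (CCN1, CCN2 and TEAD4). In that fit 18.3% of all genes tested were called lower and 15.6% higher, or 33.9% in all, beside 6 of the 10 genes here. Every shSQLE library lay below shControl replicates 2 and 3 in YAP1, WWTR1, TEAD1, AMOTL2 and LATS2, as in 31.3% of all genes tested. Every one lay above them in TEAD4, CCN1, CCN2 and AJUBA, as in 28.6% of all genes tested. With the GC and length offsets CCN1 and CCN2 were called and none of the others, against 10.4% of all genes lower and 7.02% higher. The part that base composition plays in the values of YAP1, TEAD1, TEAD4 and LATS2 was not tested beyond these fits. This holds for its trend in shControl replicate 1 and for that in the shSQLE libraries, and for any other property of shControl replicate 1. All 4 genes had the same sign in both fits and were called only in that without shControl replicate 1.

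**Figure D3:**
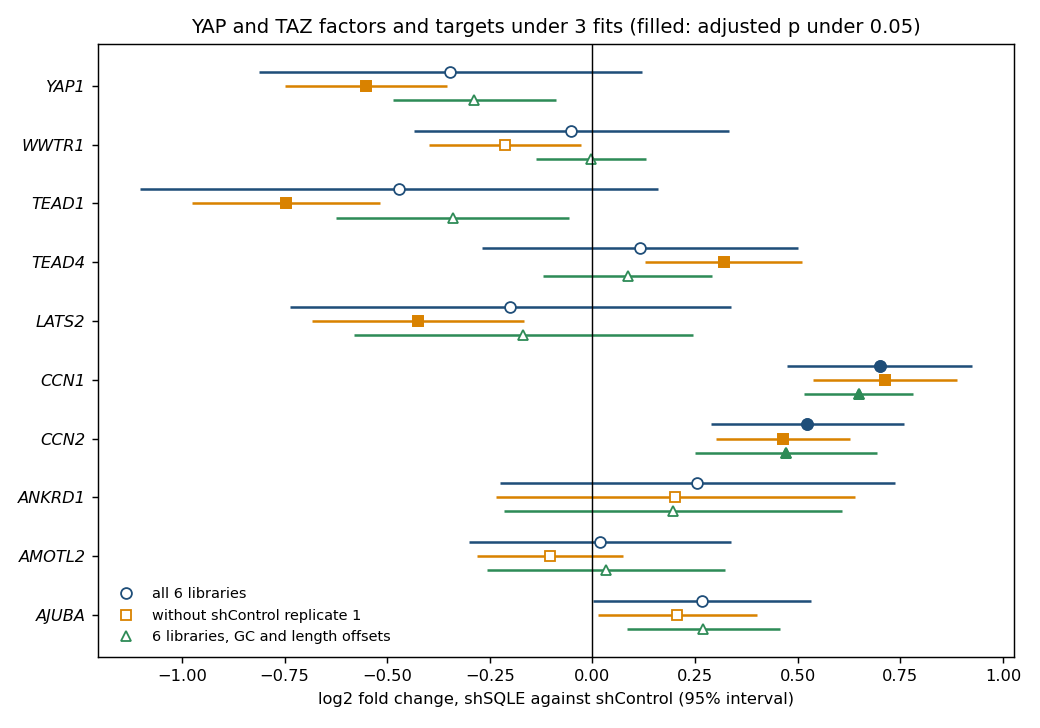
Log2 fold changes of shSQLE against shControl (x axis) with their 95% intervals for the 10 genes (y axis), in the fit on all 6 libraries (circles), without shControl replicate 1 (squares) and with offsets for GC content and length (triangles). Filled symbols have an adjusted p under 0.05 by edgeR; CCN1 and CCN2 are filled in all 3 fits, and YAP1, TEAD1, TEAD4 and LATS2 only without shControl replicate 1.

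Levels were set side by side between genes as RPKM, counts per kilobase of exon scaled to a common library size, with exon lengths of GENCODE v44. These lengths join the exons of all transcripts and exceed the canonical transcript unevenly, with 3698 against 2278 bases for CCN1 and 8353 against 5037 for WWTR1. The order of the genes and the size of the YAP1 to WWTR1 ratio therefore depend on the lengths used. In shControl the order of mean RPKM was CCN2 (94.7 ± 7.01), CCN1 (53.8 ± 0.952), WWTR1 (34.1 ± 7.11), YAP1 (26.3 ± 7.07), TEAD4 (26.1 ± 5.99), AMOTL2 (17.0 ± 2.65), TEAD1 (9.05 ± 3.32), AJUBA (8.32 ± 0.637), LATS2 (3.97 ± 1.23) and ANKRD1 (3.59 ± 0.445; SD, n = 3 each). CCN2 and CCN1 stood above all others with no overlap of libraries. WWTR1, YAP1 and TEAD4 overlapped in RPKM, as did YAP1 with AMOTL2 (through shControl replicate 1), TEAD1 with AJUBA and LATS2 with ANKRD1. In shSQLE the RPKM of CCN2 was 136 ± 4.84 and that of CCN1 87.4 ± 5.61, and TEAD4 (28.3 ± 1.30) lay above YAP1 (20.7 ± 2.12) with no overlap. TEAD3, at 5.85 ± 0.846 RPKM in shControl, and TEAD2, at 3.72 ± 0.685, had lower means than TEAD4 and TEAD1, although in shControl replicate 1 the RPKM of TEAD3 (6.83) was above that of TEAD1 (5.23).

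The ratio of YAP1 to WWTR1 in RPKM was compared after these values were seen. It was 0.702, 0.775 and 0.812 across shControl replicates 1 to 3, against 0.567, 0.664 and 0.657 across shSQLE replicates 1 to 3, or 0.763 ± 0.0559 against 0.630 ± 0.0543 (SD, n = 3 each). Every shSQLE library lay below every control, of which shControl replicate 1 was the nearest (p = 0.1 by a two-sided exact permutation test, the smallest that 3 against 3 allow).

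**Figure D4:**
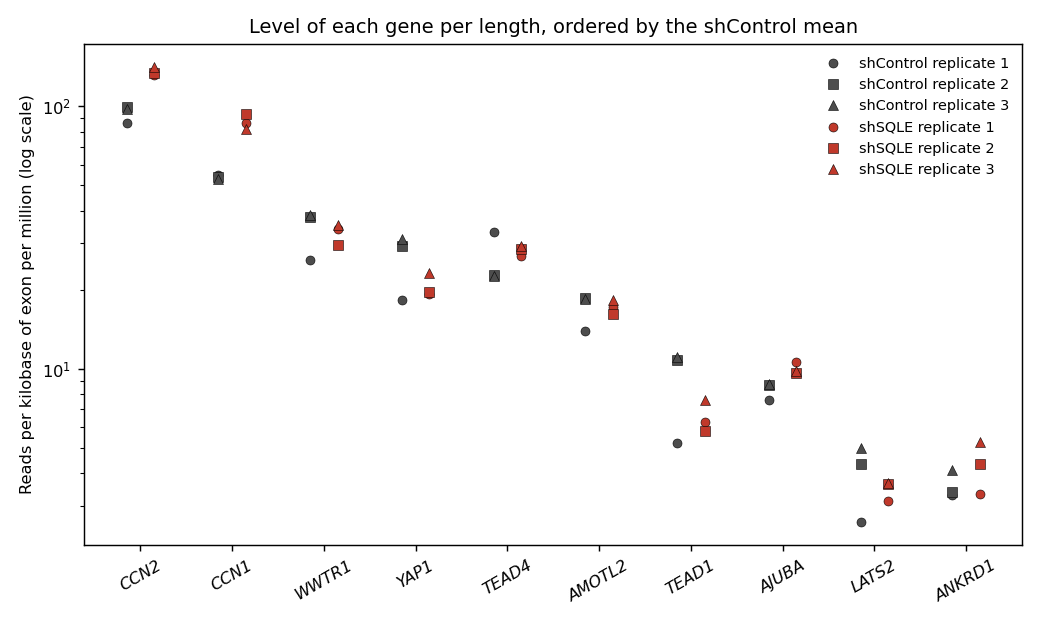
RPKM of the 10 genes in each library (y axis, log scale), ordered along the x axis by the mean in shControl, with shControl in grey and shSQLE in red and 1 symbol per replicate. CCN2 and CCN1 are the highest in both groups, and the lowest are LATS2 and ANKRD1.

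Other genes of the pathway were taken from lists rather than from how they moved. Of 17 further genes of a conserved signature of YAP and TAZ targets, 16 were tested, with a median log2 fold change of 0.10. Of these, 2 were called lower and 1 higher, where 2.84% of all genes tested were called lower and 0.369% higher. NT5E, the surface enzyme CD73 that makes adenosine, had normalized read counts of 1033, 1389 and 1385 in the controls and of 596, 558 and 574 in shSQLE, a log2 fold change of -1.14 (adjusted p = 0.00591 by edgeR). IGFBP3, a carrier of insulin-like growth factors, had 797, 613 and 597 in the controls and 308, 199 and 138 in shSQLE (log2 fold change -1.63, adjusted p = 0.0214 by edgeR). CCDC80, a secreted matrix protein, had 128, 127 and 107 in the controls and 210, 205 and 234 in shSQLE (log2 fold change 0.84, adjusted p = 0.0227 by edgeR). Named targets of YAP and TAZ were thus called in both directions. The groups did not overlap in any of these 3 genes, as in 12.1% (lower) and 10% (higher) of all genes tested. In the fits that left out 1 library, NT5E was called in 3 of 6 (adjusted p up to 0.0575, lost without any 1 shSQLE replicate), IGFBP3 in 3 (up to 0.117, lost without shControl replicate 2 or shSQLE replicate 2 or 3) and CCDC80 in 1, that without shControl replicate 1 (up to 0.124). GADD45A, a stress-induced growth arrest gene, came next with a log2 fold change of 0.27 (adjusted p = 0.318 by edgeR), and the other 12 lay between -0.20 and 0.18. Without shControl replicate 1, 3 of 17 tested were called lower and 1 higher, and the median log2 fold change was -0.03. Of all genes tested in that fit, 18.3% were called lower and 15.6% higher.

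In the CCN family the remaining detected gene went the other way from CCN1 and CCN2. CCN3, once called NOV, encodes a secreted protein with the modules of CCN1 and CCN2 that is known to oppose CCN2 in several tissues. Its normalized read count was 118, 136 and 175 across shControl replicates 1 to 3, against 21.5, 31.5 and 18.5 across shSQLE replicates 1 to 3. Every shSQLE library was far below every control, and the groups differed by -2.57 on the log2 scale (SE 0.26, adjusted p = 0.00238 by edgeR), and all 13 alternative fits called it, up to an adjusted p of 0.0273. CCN4, CCN5 and CCN6 had 0 counts in all 6 libraries. Of the ankyrin repeat relatives of ANKRD1, ANKRD2 had at most 1 count and ANKRD23 a log2 fold change of 0.19 (adjusted p = 0.895 by edgeR).

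Of 36 Hippo kinases and upstream regulators, 35 were tested, with a median log2 fold change of 0.01. Of these, 1 was called lower and 0 higher, where 2.84% of all genes tested were called lower and 0.369% higher. The gene called was WWC3, a paralog of the LATS activator KIBRA, with 40.4, 37.1 and 59.8 normalized read counts in the controls and 17.6, 8.87 and 12.3 in shSQLE (log2 fold change -1.81, adjusted p = 0.0265 by edgeR). The call was kept in 1 of 6 fits with a library left out, namely that without shControl replicate 1 (adjusted p up to 0.153), and its low counts could not be tested with the filter of 10 counts in every library. MAP4K4 and MAP4K2, kinases that can activate LATS beside MST, had log2 fold changes of -0.45 (adjusted p = 0.0762) and 0.48 (adjusted p = 0.0941 by edgeR), and without shControl replicate 1 they were called at -0.50 (0.000945) and 0.50 (0.00539). At an unadjusted p under 0.05, 5 genes of the list were lower and 3 higher, where 9.89% of all genes were lower and 4.83% higher. The kinases STK3 and STK4 (MST2 and MST1), at 0.00 and -0.05, and LATS1, at -0.09, did not pass. Without shControl replicate 1 these kinases were at -0.16, -0.24 and -0.34, uncalled in each. Leaving out shControl replicate 1, 13 of 35 of the list were called lower and 4 higher, with a median log2 fold change of -0.09. That fit called 18.3% of all genes lower and 15.6% higher.

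Of 10 other TEADs, cofactors and repressors, 8 were tested and 0 passed, also at an unadjusted p under 0.05 (0 genes by edgeR). Their median log2 fold change was -0.11. The smallest p in the list belonged to VGLL3, a cofactor that competes for TEADs, with 159, 384 and 354 normalized read counts across shControl replicates 1 to 3, against 208, 152 and 246 across shSQLE replicates 1 to 3 (log2 fold change -0.58, adjusted p = 0.499 by edgeR). The osteoblast factor RUNX2 (-0.29), RUNX1 (-0.17) and TEAD2 (-0.26) followed. In the fit without shControl replicate 1, 3 were called lower and 0 higher: VGLL3 at -0.87 (adjusted p = 0.00166 by edgeR), RUNX2 at -0.41 (0.0369) and RUNX1 at -0.28 (0.0376). Of all genes, 18.3% were called lower there and 15.6% higher.

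CCN1, CCN2 and ANKRD1 also respond to actin through the factor SRF and its coactivators MRTF-A and MRTF-B, so actin-regulated genes were listed. Of 20, 18 were tested and 0 passed the adjusted p by edgeR, with a median log2 fold change of 0.01, while 1 was lower and 1 higher at an unadjusted p under 0.05. These were TPM1, a tropomyosin (-0.30, adjusted p = 0.193 by edgeR), and ACTG1, cytoplasmic gamma actin (0.35, adjusted p = 0.238). ACTB, cytoplasmic beta actin, was at 0.31 (adjusted p = 0.361 by edgeR) and TAGLN, transgelin, at -0.75 (adjusted p = 0.430 by edgeR). TAGLN was highest in shControl replicate 1, with a normalized read count of 70.4. Without that library TAGLN was at -0.31 (adjusted p = 0.444 by edgeR). SRF itself was at 0.05, with the 2 coactivators at -0.17 (MRTFA) and 0.00 (MRTFB). MRTFB was at -0.23 without shControl replicate 1 (adjusted p = 0.256 by edgeR). With shControl replicate 1 left out, 2 of the 18 were called lower and 3 higher, where 18.3% of all genes were lower and 15.6% higher. Among them were TPM1 at -0.33 (adjusted p = 0.00733 by edgeR), ACTG1 at 0.47 (0.00157) and ACTB at 0.46 (0.00275).

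**Figure D5:**
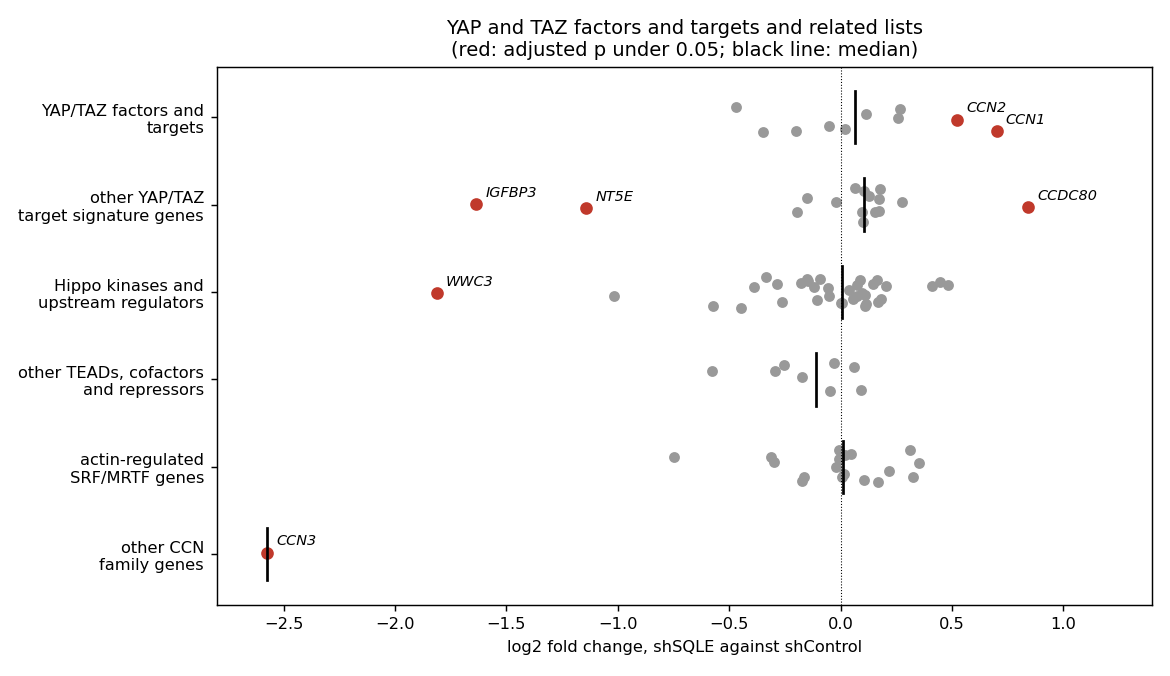
Log2 fold changes of shSQLE against shControl (x axis) for the 10 genes and for 5 related lists (y axis), 1 point per gene tested, with a black line at each median. Red points have an adjusted p under 0.05 by edgeR: CCN1, CCN2 and CCDC80 on the higher side, and NT5E, IGFBP3, WWC3 and CCN3 on the lower side.

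The profile of CCN1 over the 6 libraries, taken as log2 CPM centred on its mean, was set against 9878 other genes with a mean of at least 100 counts. The closest by root mean square difference were the transcription factor MYC (0.04 on the log2 scale), the tight junction gene CLDN11 (0.05) and the chromatin protein HMGB2 (0.05). CCN2 was 44th, with a difference of 0.14, and YAP1 was 8887th, with 0.58. For YAP1 the closest were the sugar phosphate mutase PGM3 (0.03), the lysosomal membrane gene MFSD8 (0.03) and the exocyst subunit EXOC8 (0.04), with LATS2 427th (0.12) and TEAD1 646th (0.13). These are descriptions over 6 libraries that share a group structure, and for YAP1 a shared low value in shControl replicate 1. Annotated long non-coding genes lie on the opposite strand within YAP1, WWTR1, TEAD1, CCN2 and LATS2, and since the use of the strand in counting is not given in the sources used here, their reads may be part of those counts.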

How the data were processed

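RNA-seq of 6 U2OS libraries (3 shSQLE, 3 shControl, grouped by the genotype label, replicate numbers as in the titles) was analysed. Per the labels, the authors used fastp 0.20.0 for trimming of the paired 151 bp reads, STAR 2.7.9a for alignment (hg38) and featureCounts 2.0 for counting. What they deposited are unscaled whole-number counts, 1 column per library. The annotation release, strand and multi-mapping settings are not given in the sources used here. Of 19937 identifiers 19905 matched a symbol. After filterByExpr, 12450 genes were fitted in edgeR 4.0.16 (R 4.3.3, limma 3.58.1) with TMM factors, condition as the only term, the quasi-likelihood test and Benjamini-Hochberg adjustment over all genes tested, threshold 0.05. CPM on the log2 scale used a prior count of 2. RPKM used the union of GENCODE v44 exons. The fit was checked on simulated counts. The 13 alternatives were DESeq2 1.42.0, RLE factors, library size only, no filter, at least 10 counts in every library, a replicate block, GC and length offsets (mgcv 1.9.3) and leaving out each of 6 libraries. The set, the lists and the rule for the genes named (the set, the target check, up to 4 genes per list by p, and 3 nearest profiles each for CCN1 and YAP1) were chosen with earlier results of these data known. STK3, STK4, LATS1, SRF, MRTFA, MRTFB, TEAD2 and TEAD3 in RPKM and the cell type markers were named for their roles after their values were seen. The values of 1 gene of the Hippo list are not reported here.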

Additional observations from a re-analysis of the deposited data

How the results depend on the processing

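SQLE kept its call in all 13 alternatives (log2 fold changes from -3.12 to -2.87), and the median of the 10 genes moved by less than its spread between libraries. Of 130 values of the 10 genes, 109 kept their direction and side of the threshold, 10 lost a call (3 of CCN1, 7 of CCN2), 4 gained one, all without shControl replicate 1, and 7 changed sign, all of them uncalled. The genes called lower (354) and higher (46) became 568 and 162 with DESeq2 and 1297 and 874 with GC and length offsets; leaving out 1 library gave 101 (without shSQLE replicate 3) to 2300 lower and 4 (without shSQLE replicate 1) to 1964 higher, both highest without shControl replicate 1. Genes of the set called higher numbered 1 with library size only and 1 with the replicate block, and 0 to 3 with 1 library left out; those called lower numbered 0 to 3. AMOTL2 was at -0.027 with library size only and from -0.10 to 0.093 with 1 library left out, WWTR1 from -0.21 to 0.059 and LATS2 from -0.43 to 0.0067. The cause of these shifts was not tested beyond the fits given. Deviations of same-numbered libraries from their group means correlated at 0.14, -0.43 and 0.54 over genes. Those of libraries with different numbers correlated from -0.60 to 0.54. These values do not show whether the numbers pair the libraries, since both kinds of pair spread as widely. With the replicate block 362 genes were lower and 34 higher, and CCN2 had an adjusted p of 0.0685 by edgeR. In the related lists 10 genes had too few counts to test (0 to 22 in a library), while none of the 10 genes of the set did.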
